A study of Mus musculus with 6 samples.

Results

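The Hox genes of clusters A to D encode homeodomain transcription factors, and the 39 protein-coding genes described here were taken by symbol (Hox, then a letter a to d, then a number) from the RefSeq annotation of mm10, out of 21627 protein-coding genes on the chromosomes with values. All 39 had a timing score in each of 6 profiles, as had 18059 autosomal protein-coding genes in all. HoxA has 11 genes, HoxB 10, HoxC 9 and HoxD 9. DNA of growing mouse myeloid cell lines was sequenced, from 3 samples labelled Recql4 -/- Klhdc3 -/- and 3 labelled WT. All of them, WT included, had been immortalised by way of HoxB8 under GM-CSF selection, and the labels do not say whether samples of a genotype are separate lines. Cultures divided every 15 to 18 hours with over 25% of cells in S phase. No column of the deposited tables names a sample, so the columns are called profiles A to F in their order, which of them are replicates is not known, and no comparison between genotypes was made.

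Hox genes lie in an order along each cluster that matches the order in which they are switched on along the body axis, and genes with the same number in different clusters are paralogues. In blood, Hox genes of the A and B clusters are active in stem and progenitor cells and are shut off as cells mature, and forced expression of HoxB8 keeps myeloid progenitors dividing. DNA that replicates early in S phase has more copies in a growing culture than DNA that replicates late. The raw level is read here as this copy level per window of about 10 kb. The timing score is taken as its smoothed form in SD units over the autosomes, in which a higher value means earlier replication.

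Besides the proteins, the clusters hold 6 microRNA genes. A single mature sequence of each is shown here because the gene lies inside a window whose timing is given below. The other mature form of each gene is left out. Capitals mark the seed, bases 2 to 8. The sequences are from RefSeq (GRCm38.p6).
mmu-miR-196b-5p (HoxA, chr6:52230129-52230150, minus strand): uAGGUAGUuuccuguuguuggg
mmu-miR-196a-5p (HoxB, chr11:96265187-96265208, and HoxC, chr15:102973365-102973386, plus strand): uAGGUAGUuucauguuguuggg
mmu-miR-10a-5p (HoxB, chr11:96317186-96317208, plus strand): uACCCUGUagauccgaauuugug
mmu-miR-10b-5p (HoxD, chr2:74726074-74726096, plus strand): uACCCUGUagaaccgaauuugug
mmu-miR-615-3p (HoxC, chr15:103014969-103014990, plus strand): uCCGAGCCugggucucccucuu
The miR-196 seed is shared by 3 genes in 3 clusters and the miR-10 seed by 2 genes in 2 clusters. Counted from 1 at the 5′ end, miR-196a and miR-196b differ by A12C and miR-10a and miR-10b by U12A, outside the seed. The miR-196 genes differed in score in each profile, and the miR-10 genes overlapped in range. Mir196a-2 in HoxC had a median score of 0.84, Mir196b in HoxA 0.45 and Mir196a-1 in HoxB -0.17. Mir10b in HoxD had a median of 0.10 (-0.052 to 0.23) and Mir10a in HoxB one of -0.16 (-0.26 to 0.20), with Mir10a the higher one in profile E. Mir615 in HoxC stood at 0.86.

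On the smoothed score the clusters differed in timing, from HoxC, the earliest, through HoxA and HoxD to HoxB. HoxC (chromosome 15, 102921131 to 103036856) had mean scores over its 13 windows of 0.90, 0.88, 0.66, 0.77, 0.82 and 0.88 in profiles A to F. HoxA (chromosome 6, 52155367 to 52260880) followed with 0.45, 0.34, 0.42, 0.51, 0.58 and 0.27 over 11 windows. HoxC was higher than HoxA on this score in each profile, by 0.24 to 0.60 units. On raw levels this order did not hold. There HoxC had a median of 1.96 (1.91 to 1.99 over profiles) and HoxA one of 1.98 (1.93 to 2.00).

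HoxD and HoxB were later. HoxD (chromosome 2, 74668225 to 74765142) had 0.24, 0.20, 0.12, -0.045, 0.098 and -0.021 over 11 windows. HoxB (chromosome 11, 96194316 to 96368254) had -0.11, -0.21, -0.24, -0.15, 0.21 and -0.15 over 19 windows. HoxA was higher than both in each profile. HoxB was lower than HoxD in 5 profiles and higher by 0.11 in profile E, so the order of these neighbours was not fixed. Set against the gene scores of all 18059 genes, the median scores of the clusters stood at percentiles 52.2 (HoxC), 31.4 (HoxA), 21.6 (HoxD) and 15.7 (HoxB).

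Member by member, the counts follow the clusters. The 20 genes of HoxA and HoxC scored above 0 in every profile, and the 19 genes of HoxB and HoxD in some profiles only. Over all protein-coding genes, 76.4% scored above 0 in every profile. None of the 39 scored below 0 in every profile, against 15.3% of all genes, but with profile E left out the 10 HoxB genes did. The median score of the Hox genes was 0.41 (from -0.17 to 0.87), against 0.82 for all protein-coding genes. The highest and lowest profile of a Hox gene lay 0.30 units apart in the median (0.23 to 0.47), and those of all protein-coding genes 0.27 apart.

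**Figure D1:**
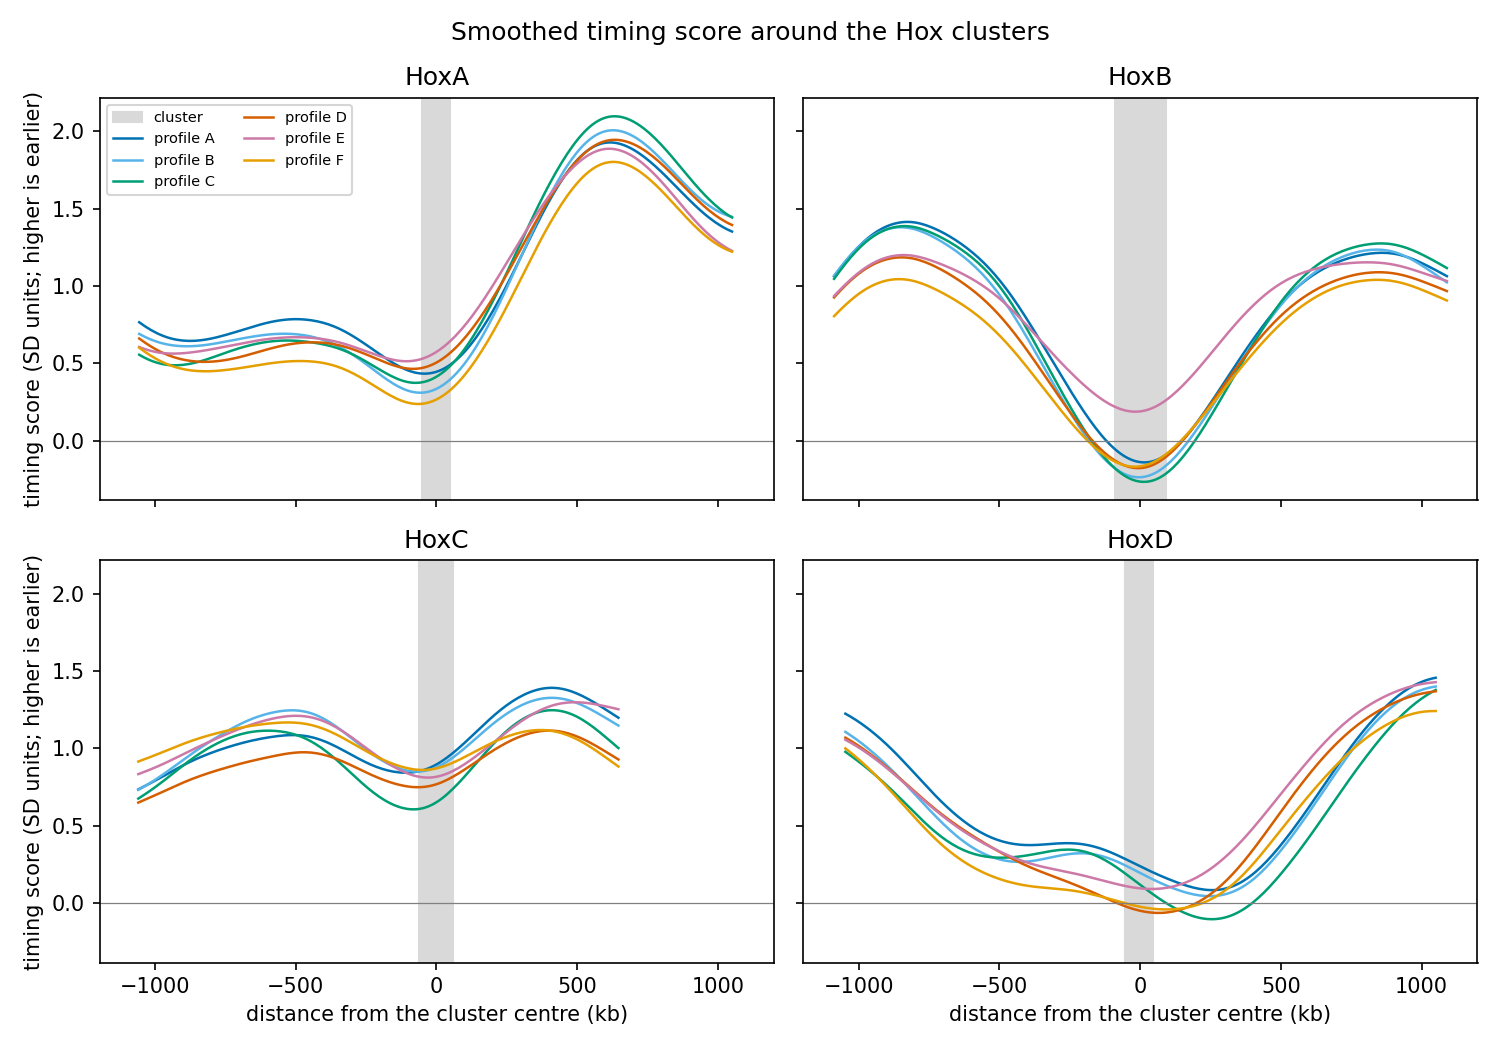
Timing score (SD units, higher is earlier) against distance from the centre of each cluster in kb, 1 line per profile, with the cluster in grey. Each cluster lies in or beside a dip between earlier flanks: HoxB holds the minimum in all 6 profiles, and profile E lies above the others there. Lines of HoxC end where the valued windows of chromosome 15 end.

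HoxA, HoxB and HoxC lay at or near a local minimum of the timing profile, that is, a place that replicates later than the DNA on both sides, and HoxD lay farther from one. Minima were taken on the median of the 6 profiles with a prominence of at least 0.1 units. Of the 39 genes, 31 lay within 150 kb of one, where 9.73% of all protein-coding genes do, and the other 8 were HoxD genes. All 39 lay nearer to a minimum than to a maximum, against 36.3% of all genes. The genes of a cluster share a locus, so these counts describe 4 places in the genome and not 39 independent ones.

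HoxB lay across its minimum. The minimum fell inside the cluster in all 6 profiles, between -18.5 and 11.5 kb from its centre, at scores from -0.27 to 0.19. The nearest maxima of the median profile stood at -846 and 837 kb from the centre, with scores of 1.29 and 1.18. The dip was 0.97 to 1.54 units deep, measured to the lower of the flanking maxima of each profile.

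HoxA and HoxC lay beside or at the edge of their minimum, which fell inside the cluster in 1 profile for HoxA and in 2 for HoxC. The minimum of HoxA was at the end away from Hoxa13, -101 to -41.3 kb from the centre, and the score climbed past Hoxa13 to a maximum of 1.94, 626 kb above the centre. Its depth was 0.16 to 0.35 units in profiles A, C, D and E, and 1.25 and 1.16 in B and F, where no lower maximum was found nearer than -1701 kb. The minimum of HoxC was at its Hoxc13 end, -112 to -32.1 kb from the centre, between maxima of 1.14 and 1.27. The last valued window of chromosome 15 lay 594 kb beyond Hoxc4, so the upper side of HoxC rests on fewer windows, and profile E had no maximum there.

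The minimum next to HoxD lay beyond its Hoxd1 end in 5 profiles and inside the cluster, near that end, in profile E. It was 37.0 to 87.4 kb above the centre in profiles D, E and F and 249 to 259 kb above it in A, B and C. The dip was as deep as that of HoxB, 1.21 to 1.55 units, but wide, with the nearest maxima of the median profile at -2431 and 1121 kb from the centre.

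Set against the mean of all windows within 500 kb of either end, both sides pooled, each cluster scored lower in each profile. HoxB scored -0.15 and its flanks 0.47 (medians over profiles), a difference of -0.63 (-0.72 to -0.47). HoxA differed from its flanks by -0.47 (-0.53 to -0.37) and HoxC by -0.24 (-0.32 to -0.17). The sides of HoxA were unequal, with median scores of 0.55 below the cluster and 1.24 above it. The sides of HoxD had medians of 0.26 below and 0.17 above, the upper one ranging from 0.0018 to 0.35 over profiles. For HoxD the difference was -0.090 (-0.23 to -0.018), which is no larger in size than its SD between profiles (0.094). In profiles A, B and C it was -0.036, -0.018 and -0.027, and in D, E and F -0.23, -0.19 and -0.14. The median lies between these groups of values and is near no profile. The size of the HoxD difference depends on the flank, with a median of -0.020 for flanks of 250 kb and -0.430 for flanks of 1 Mb. For HoxA these medians were -0.223 and -0.607, and for HoxB -0.309 and -0.959. For HoxC they were -0.141 and -0.195.

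The nearest protein-coding genes on each side lay 6.7 to 199 kb from the clusters, and their scores were read at the gene midpoint. At HoxA, the adaptor gene Skap2 below the cluster had a median score of 0.55, and Evx1, a homeobox gene of the even-skipped family, 0.60 above it. At HoxB, Skap1, an adaptor of T cells, stood at 0.45, and Ttll6, a tubulin glutamylase, at -0.066, only 28.1 kb from Hoxb13. At HoxC, Calcoco1 stood at 0.96 and Smug1, a uracil-DNA glycosylase, at 1.01. At HoxD, Evx2 stood at 0.16 and Mtx2, a mitochondrial protein gene, at 0.023. HoxC and HoxB sit among 23 and 17 other protein-coding genes within 500 kb, and HoxA and HoxD among 4 and 3.

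Along the paralogues the score changed little, and not in the same direction in each cluster. In HoxA the score was highest at Hoxa13, a gene of digit and urogenital development, with 0.49, 0.39, 0.48, 0.57, 0.64 and 0.33 in profiles A to F. Hoxa13 was earlier than Hoxa9 in each profile. Spearman's coefficient of the median score on the paralogue number was 0.995 over 11 genes, a description only, since the genes share 9 windows of a smoothed profile.

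HoxC ran the other way. Hoxc4, its gene with the lowest number and the earliest of the 39, had 0.95, 0.93, 0.72, 0.81, 0.84 and 0.90. Hoxc13, a gene of hair and nail formation, had 0.86, 0.85, 0.61, 0.75, 0.81 and 0.86. Hoxc4 was earlier than Hoxc13 in each profile, and Spearman's coefficient was -1 over 9 genes.

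In HoxD the higher numbers were again earlier. Hoxd13, a digit gene that shares its window with Hoxd12, had 0.28, 0.24, 0.18, -0.027, 0.11 and -0.0055. Hoxd1 had 0.20, 0.15, 0.056, -0.062, 0.091 and -0.036. Spearman's coefficient was 0.992 over 9 genes in 7 windows, with a span of 0.069 units between the ends.

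HoxB had its latest genes in the middle. Hoxb9, a gene of thoracic patterning, was the latest of the 39 by median, with -0.14, -0.24, -0.26, -0.18, 0.19 and -0.17. Hoxb1, a hindbrain gene, was the earliest of the cluster with -0.10, -0.18, -0.23, -0.12, 0.25 and -0.10. Hoxb13, at the far end and apart from the others, had a median of -0.13. The coefficient of the median score was -0.65 over 10 genes in 8 windows, and in single profiles it ran from -0.65 to -0.25. The difference between Hoxb13 and Hoxb1 changed sign among profiles (-0.035 to 0.049).

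Spans within a cluster were small next to those between clusters. The medians of the genes of 1 cluster spanned 0.061 units in HoxB, 0.039 in HoxC and 0.069 in HoxD, each less than the SD between profiles of the cluster score (0.092 to 0.16). The members of 1 paralogue group spanned 0.71 units in the median over 13 groups, and at most 1.03. Of the variance of the 39 gene medians, 99.7% lay between clusters and 11.4% between paralogue groups. The 39 genes share 33 windows of a smoothed profile, so genes of 1 cluster score alike by construction. The shares are a description only, and none was computed for arbitrary groups. On raw levels the SD between windows of a cluster was 0.104 to 0.140, and the cluster levels ran only from 1.87 to 1.98 (medians over profiles). By median, the HoxC member was the earliest of each group that has one, and the HoxB member the latest. In profile E some HoxD members were later than their HoxB paralogues, as with Hoxd9 at 0.098 and Hoxb9 at 0.19. Hoxa9, a partner of Meis1 in myeloid leukaemia, had 0.46, 0.35, 0.44, 0.53, 0.60 and 0.29 in profiles A to F. Its median was 0.45, and those of its paralogues Hoxc9, Hoxd9 and Hoxb9 were 0.84, 0.12 and -0.17.

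**Figure D2:**
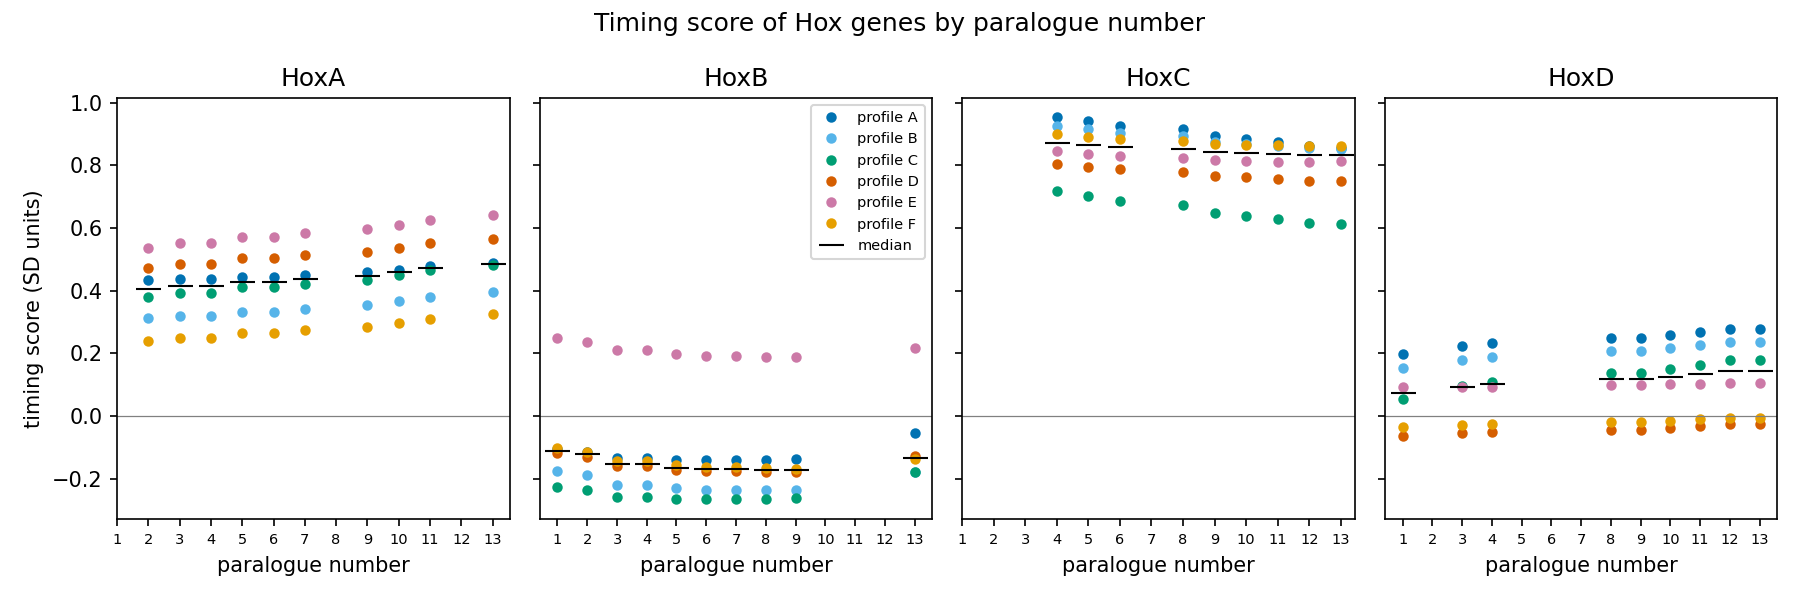
Timing score (SD units) of Hox genes in profiles A to F against paralogue number, with a bar at the median, 1 panel per cluster; not every member is drawn. On this smoothed score clusters differ by more than genes within a cluster. The score rises with the number in HoxA and HoxD, falls in HoxC and dips in the middle of HoxB.

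On raw levels the rank order was weak and partly turned round. Spearman's coefficient of the median raw level on the paralogue number was 0.091 in HoxA, 0.13 in HoxB, -0.083 in HoxC and -0.24 in HoxD. Single windows of 1 cluster differed by far more than the profiles did in 1 window. In HoxC the SD between windows was 0.140 and the SD between profiles within a window 0.0492, and in HoxB these were 0.104 and 0.0571. The window of Hoxc8, for example, had raw levels of 1.72, 1.70, 1.70, 1.80, 1.70 and 1.87, and that of Hoxc6 next to it 2.16, 2.229, 2.18, 2.14, 2.22 and 2.22. These groups of values do not overlap. The base composition of these windows was not analysed here, and its part in the window levels was not tested.

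The raw level of the clusters was below that of their flanks in all 6 profiles. Against the flanks within 500 kb the median difference was -0.203 in HoxC, -0.189 in HoxB, -0.125 in HoxA and -0.0758 in HoxD. HoxC had mean raw levels of 1.99, 1.98, 1.91, 1.92, 1.94 and 1.97 in profiles A to F. The windows within 100 kb outside it had 2.13, 2.12, 2.10, 2.13, 2.11 and 2.16, so the cluster lay lower by 0.14 to 0.21 with no overlap. The median smoothed scores of the same windows were 0.85 in the cluster and 0.90 beside it.

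In HoxB the raw level was 1.88, 1.87, 1.88, 1.86, 1.90 and 1.86, against 1.95, 1.95, 1.95, 1.94, 2.02 and 1.97 within 100 kb outside. In HoxD it was 1.94, 1.94, 1.96, 1.90, 1.93 and 1.92, against 2.08, 2.05, 2.02, 1.98, 1.98 and 2.00. In HoxA the level was 1.98 in the median and 1.97 just outside, and the cluster was lower in 1 profile only. The values did not overlap in HoxB and HoxD and overlapped in HoxA.

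The raw level was then set against the level that a straight line on the score gives in the same profile. HoxC lay 0.13 to 0.15 below the line, with a median of -0.142. Of 20816 autosomal 100-kb bins with at least 8 windows, 16 had a median as low (0.0769%). HoxB lay at -0.084 (2.2% of bins as low), HoxA at -0.053 (9.38%) and HoxD at -0.051 (10.3%). Each cluster was below the line in all 6 profiles, as were 28.5% of all bins; HoxC is set apart from the bins by its size and not by that count. At the level of genes, 25 of the 39 Hox genes lay below the line in every profile, against 20.3% of all protein-coding genes, and 3 lay above it in every profile. The flanks within 500 kb lay at 0.030 for HoxC and 0.022 for HoxB. Windows of 1 cluster are neighbours, and the smoothing settings of the authors are not given in the sources used here.

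**Figure D3:**
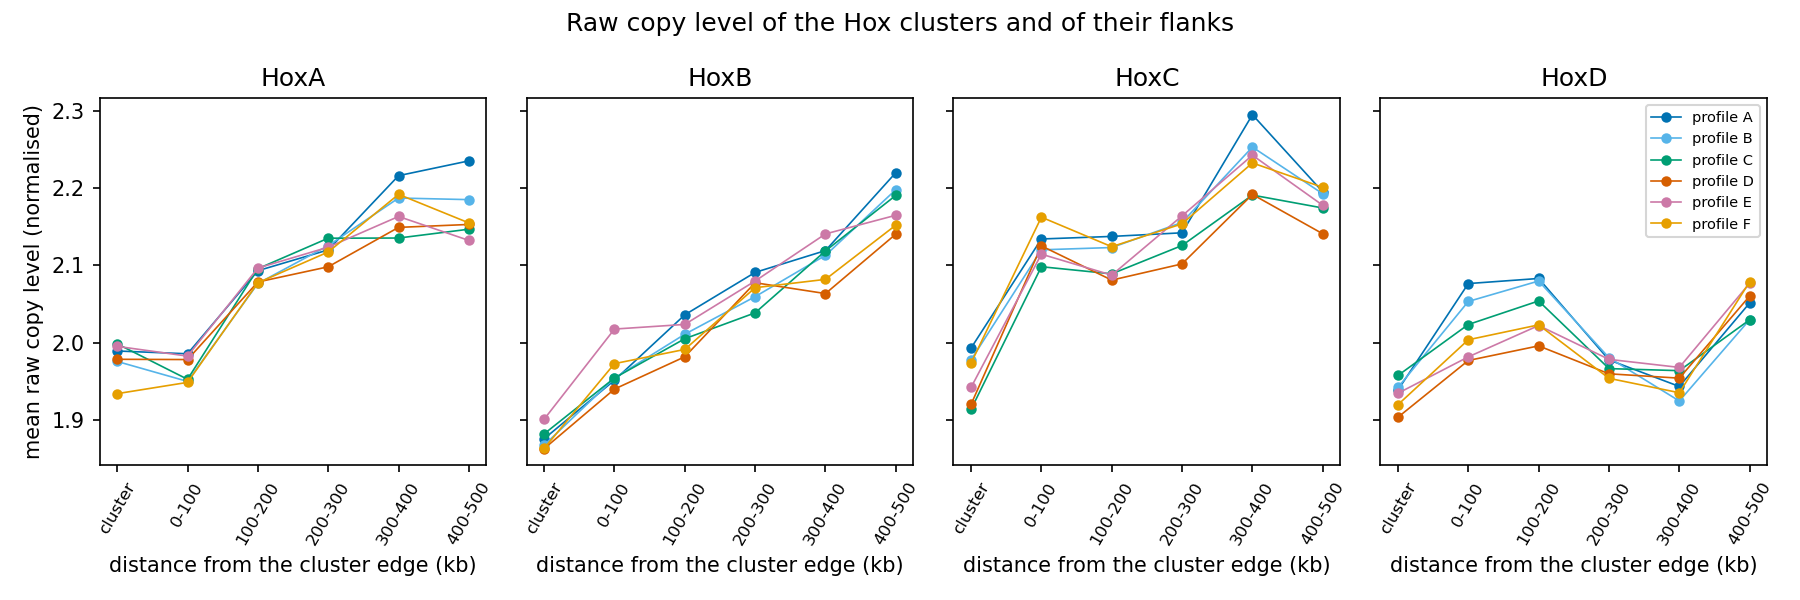
Mean raw copy level (normalised, autosomal medians 1.96 to 1.98) of the windows of each cluster and of windows in steps of 100 kb from its edge on both sides, 1 line per profile. The axis does not start at 0. In HoxC the cluster lies below the first step in each profile, and in HoxA cluster and first step overlap.

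On raw levels rescaled to the SD of each profile, 18 Hox genes were below 0 in every profile, where 13.2% of all protein-coding genes were, and 8 were above 0 in every profile, where 60.9% of all genes were. Of the 18, 7 were HoxB genes, 5 HoxD, 3 HoxA and 3 HoxC. The 39 Hox genes share 33 windows in 4 clusters, so these are not counts of independent genes. HoxC, the earliest cluster by score, had a rescaled raw level of -0.044 and HoxD one of -0.20, so both changed sign with the table used.

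Hoxb8, the gene named in the immortalisation of the cells, lies with all of its 5925 bp (chromosome 11, 96279401 to 96285325) inside a single window, 96277806 to 96287805. Its promoter in RefSeq (GRCm38.p6), which lies in the same window, is printed because this is the window of the clusters with the widest gap between the third and the fourth profile. Capitals mark CG, read the same on both strands.
Hoxb8 promoter (chr11:96281655-96281954, plus strand): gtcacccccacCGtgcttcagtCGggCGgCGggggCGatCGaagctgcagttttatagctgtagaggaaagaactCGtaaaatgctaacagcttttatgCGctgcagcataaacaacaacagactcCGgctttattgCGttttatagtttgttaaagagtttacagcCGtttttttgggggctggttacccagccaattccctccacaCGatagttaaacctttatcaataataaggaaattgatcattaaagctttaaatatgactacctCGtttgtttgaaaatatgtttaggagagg
It holds 13 CG, and 51.4% of 21044 promoters of protein-coding genes of this length hold at least as many. The table gave a promoter for 22 of the 39 Hox genes, with a median of 14.8 CG, against 14 for all protein-coding genes.

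The raw level of the Hoxb8 window was 1.94, 1.95, 2.04, 1.67, 1.64 and 1.72 in profiles A to F. Profiles A, B and C lay above D, E and F with a gap of 0.215 between the third and the fourth value. Of 215696 windows valued in every profile, 128 had a gap as wide (0.0593%), and the median gap was 0.0188. Among the 54 windows of the Hox clusters the next widest gap was 0.0945, in the window across the Hoxc13 end of HoxC. The gap was chosen as a measure after these values were seen.

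The windows on both sides showed no gap of this size. The window below, with Hoxb9, had 1.87, 1.93, 1.89, 1.85, 1.87 and 1.78, in which A, B and C were again the higher ones, by a gap of 0.0028. The window above, with Hoxb6 and Hoxb7, had 1.67, 1.64, 1.61, 1.65, 1.76 and 1.70. Against the mean of both neighbours the Hoxb8 window was higher by 0.165, 0.166 and 0.292 in A, B and C. In D, E and F its differences were -0.0819, -0.175 and -0.0179. The window above is the lowest of HoxB by median (1.66), which lowers this mean. The 18 other HoxB windows averaged 1.87, 1.86, 1.87, 1.87, 1.92 and 1.87 in profiles A to F, with SDs of 0.084 to 0.13. Against these means the Hoxb8 window was higher in A, B and C and lower in D, E and F. The distance was less than the SD in A and B and more than it in C, D, E and F. The smoothed score of the window did not separate A, B and C from D, E and F, with -0.14, -0.24, -0.26, -0.18, 0.19 and -0.17.

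The labels do not give the species, the vector or the number of copies of the introduced HoxB8, and whether reads from it were counted in this window was not tested. A, B and C are also the profiles with the far minimum at HoxD. The genotype of each profile is not known, so neither is a comparison of genotypes. Averaged over the window and both neighbours, the gap was 0.0729.

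**Figure D4:**
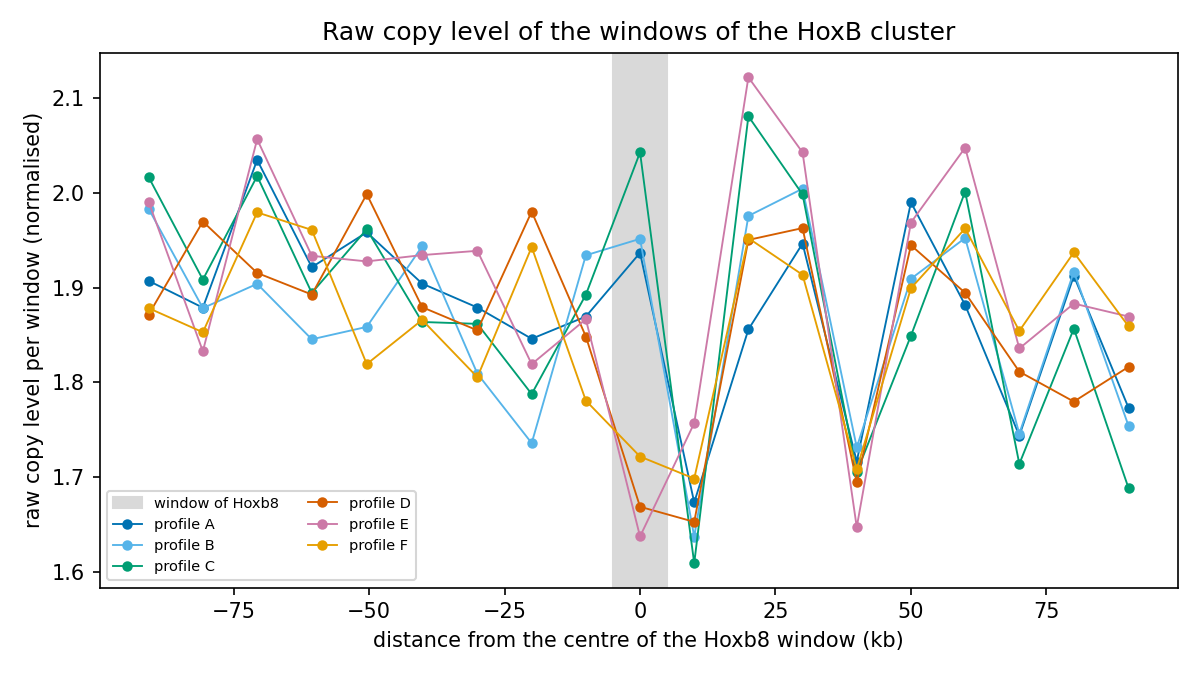
Raw copy level (normalised) of the 19 windows of HoxB against distance from the centre of the Hoxb8 window in kb, 1 line per profile. The axis does not start at 0. At the Hoxb8 window profiles A, B and C lie at 1.94 to 2.04 and D, E and F at 1.64 to 1.72, and the next window is low in all 6.

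Lists of genes that work with Hox proteins or set their activity had medians from 0.71 to 1.05, against 0.41 for the Hox genes and 0.82 for all protein-coding genes. Of 9 Hox cofactor genes, 6 scored above 0 and 2 below 0 in every profile, with a median of 0.71. Pbx4 was the earliest at 1.36. Meis1, whose protein binds DNA together with Hox proteins, was the latest at -0.89. The listed regulators that keep Hox genes active had 6 of 7 measured members above 0 in every profile. They ran from Dot1l, a histone H3 methyltransferase, at 1.51 to Psip1 at 0.17. Kmt2a, the methyltransferase fused to partner proteins in leukaemia, stood at 1.43, and Men1 had no value. Of 14 Polycomb regulators, which keep Hox genes silent, 13 were above 0 in every profile, from Ring1 at 1.38 to Phc1 at -0.11. The ParaHox and Cdx genes, homeobox genes related to Hox, had 5 measured autosomal members, all above 0 in every profile, from Gsx2 at 0.60 to Cdx1 at 0.90. These counts stand beside the 76.4% of all genes above 0 in every profile, and no list was tested.

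Other gene clusters also scored below their flanks. The 57 clustered protocadherin genes on chromosome 18 had a cluster score of 0.27 and a difference from the flanks of -0.75 (-0.88 to -0.55). The histone cluster of chromosome 13, with 54 genes, had 0.26 and -0.40 (-0.51 to -0.30). The differences of HoxA and HoxB (-0.47 and -0.63) lie between these values, and those of HoxC and HoxD are smaller in size, all with flanks of 500 kb. These clusters are longer than the Hox clusters, and the difference between them was not tested. Their scores average every window from the first to the last gene, with any other genes that lie between. For the histone cluster this is 21715711 to 23934913, so its values are not those of the histone genes alone.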

How the data were processed

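Whole-genome sequencing of 6 samples gave 2 deposited tables without a header, over 237602 windows. The authors deposited a raw level, of another kind than counts, and a smoothed timing score, which has mean 0 and SD 1 over the autosomes of each column. The unit and normalisation of the raw level are not stated. It was read as a normalised copy level because its autosomal medians lie near 2 (1.96 to 1.98). Per the submitters' processing notes the build was mm10, and Picard (2.23.9) is listed. The series title names TIGER, which infers timing from depth. No source used here gives the aligner, filters or smoothing, and depth per sample is unknown, so no counting interval is given. The 6 columns name no sample. The linear model planned for named columns was therefore not run, and values are given per profile or as median and range, with no test.

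RefSeq genes (GRCm38.p6, the assembly mm10 names) took the window nearest their midpoint, within 50 kb. A cluster ran from its first to its last gene, and windows overlapping it were averaged. Window assignment, cluster and flank means, rank order, the search for minima and the residuals were tested on simulated profiles with known answers. Named genes were the members, the earliest and latest of each cluster and list, Hoxb8, Hoxa9 and the nearest outer genes. Hoxc6, Hoxc8 and Kmt2a were picked after their values were seen. Minima, edge steps, residuals and the gap at Hoxb8 were added after seeing the data. The values of some genes are not reported here. Members and lists were chosen with earlier results of these data known. The alternatives were the raw table, other windows and flanks, 100-kb bins, other prominences and each profile left out. Python 3.11.15, pandas 2.3.3 and scipy 1.17.1 were used.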

Additional observations from a re-analysis of the deposited data

Results flagged for a closer look

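In profile E the HoxB cluster had a score of 0.209, far from the other profiles, which lay between -0.24 and -0.11. The gap to the nearest of them was 0.721 of the whole range of the 6 values, above Dixon's limit. The flanks of HoxB within 500 kb were also highest in profile E, at 0.68 against 0.38 to 0.54 in the others. For HoxB minus its flanks the gap at profile E was 0.229 of the range, and for the raw level of HoxB 0.498. Both were below the limit, so the flag holds for the score of HoxB and not for its difference from the flanks. The mean score of chromosome 11 was 0.47 in profile E and 0.33 to 0.45 in the others, and its part in the HoxB value was not tested.

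In profile F the raw level of HoxA was 1.93, below the other profiles at 1.98 to 2.00, with a gap of 0.647 of the range. The score of HoxB and the raw level of HoxA were the 2 of 12 quantities examined that passed the limit. Chance marks about 1 in 20 groups, and the 6 profiles are not known to form 1 group.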

How the results depend on the processing

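On rescaled raw levels the cluster scores were 0.0713 (HoxA), -0.536 (HoxB), -0.0440 (HoxC) and -0.198 (HoxD), with the sign turned in HoxC and HoxD. HoxA and not HoxC was then the highest. Cluster minus flanks became -0.665, -1.004, -1.04 and -0.387, and Spearman's coefficient on the paralogue number 0.0913, 0.128, -0.1 and -0.235, turned in HoxB and HoxD. Then 8 genes were above 0 and 18 below 0 in every profile, and the spread among profiles was 0.719. The causes were not tested.

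With flanks of 250 kb, cluster minus flanks was -0.223 (HoxA), -0.309 (HoxB), -0.141 (HoxC) and -0.020 (HoxD). With flanks of 1 Mb it was -0.607, -0.959, -0.195 and -0.430. All were below 0, but the size of the HoxD difference depends on the flank chosen. Averaging over overlapping windows gave coefficients of 0.991 (HoxA) and 0.983 (HoxD). Chosen after seeing the data, subtracting the chromosome mean gave HoxB -0.575, and the gap at Hoxb8 over 3 windows was 0.0729.

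With each profile left out, Spearman's coefficient was 0.986 to 0.995 in HoxA and -1 to -0.883 in HoxC. Genes below 0 in every profile numbered 0 to 10, with 10 only without profile E. HoxD minus flanks was -0.143 to -0.036. No paired analysis was possible because no value column names a sample or its replicate. Without counts, the precision of a single window cannot be given.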

Other observations

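The Hox clusters also hold 24 annotated long noncoding RNA genes, 11 in HoxA, 6 in HoxB, 3 in HoxC and 4 in HoxD. Their values come from the same windows as the neighbouring Hox genes. Hotairm1, in HoxA, had a median score of 0.41 (0.24 to 0.53 over profiles). Hotair, in HoxC, stood at 0.83 (0.62 to 0.87), and Haglr, in HoxD, at 0.080 (-0.061 to 0.21).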
